A study of Homo sapiens with 8 samples.

Results

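A set of 6 long noncoding RNAs, each found by its gene symbol, was followed across HEK293T cells with altered supply of TET1, the dioxygenase that oxidises 5-methylcytosine in DNA. They were PURPL, FENDRR, LINC00665, LOC100507412, LINC02525 and GAS5-AS1, measured by 7 of the 53617 transcript clusters that held a value. They were selected on measured differences in these arrays. PURPL, FENDRR, LINC00665 and LOC100507412 had been among the named genes furthest from the control in the TET1 shRNA comparison, LINC02525 in that of wild-type and mutant plasmids, and GAS5-AS1 in that of plasmids and vector. The difference that chose each RNA is therefore described without a test, and the limma results given are those of the other comparisons. LINC00665 had 2 clusters, of which 17122112, with the higher mean, was used and 16871642 is given beside it.

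HEK293T cells derive from human embryonic kidney and express the large T antigen of SV40, a viral protein that binds p53. Cells with a stable lentiviral shRNA gave 3 arrays, 1 of a control shRNA clone and 2 of clones carrying different shRNAs against TET1 (shTET1#1 and shTET1#2). The other 5 arrays held cells transfected transiently with an empty vector, wild-type TET1-CD or TET1-FL, or the catalytically mutant mTET1-CD or mTET1-FL, and sorted by fluorescence 3 days later. Each array is thus 1 clone or 1 transfection, no condition was repeated, and p-values measure only the spread left in a fit over all 8 arrays. That spread is the gap between the 2 TET1 shRNA clones and the change in wild-type minus mutant between CD and FL.

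Long noncoding RNAs are transcribed like messenger RNAs but are not known mainly for a protein product. Many start beside or opposite a protein-coding gene and share its promoter region, and some bind chromatin or p53 regulators. PURPL is induced by p53, binds MYBBP1A and limits p53 in unstressed cells. FENDRR starts head to head with FOXF1, a transcription factor gene of lateral mesoderm, and its RNA is known to bind Polycomb repressive complexes. LINC00665 lies among zinc finger genes of chromosome 19. GAS5-AS1 runs opposite GAS5, a host gene of small nucleolar RNAs.

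Start-site windows were printed for the 3 RNAs that were matched to one. The features marked are those most relevant to p53 and to TET1, namely a p53 element and CpG dinucleotides, the substrate context of DNA methylation. The windows come from RefSeq (GRCh38.p14) and run from 250 bases before to 50 bases after a start, 5′ to 3′ on the transcribed strand. In PURPL (chr5:27472042-27472341, plus strand) capitals mark p53 half-sites. In FENDRR (chr16:86508811-86509110, minus strand) and LINC00665 (chr19:36331704-36332003, minus strand) capitals mark CG. LINC02525, GAS5-AS1 and LOC100507412 were not matched.
PURPL: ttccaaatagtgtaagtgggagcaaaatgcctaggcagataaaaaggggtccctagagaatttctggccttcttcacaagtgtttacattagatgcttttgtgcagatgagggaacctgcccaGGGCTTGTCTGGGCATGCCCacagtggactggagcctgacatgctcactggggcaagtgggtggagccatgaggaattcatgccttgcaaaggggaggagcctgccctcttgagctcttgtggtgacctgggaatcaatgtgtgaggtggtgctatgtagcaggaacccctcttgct
FENDRR: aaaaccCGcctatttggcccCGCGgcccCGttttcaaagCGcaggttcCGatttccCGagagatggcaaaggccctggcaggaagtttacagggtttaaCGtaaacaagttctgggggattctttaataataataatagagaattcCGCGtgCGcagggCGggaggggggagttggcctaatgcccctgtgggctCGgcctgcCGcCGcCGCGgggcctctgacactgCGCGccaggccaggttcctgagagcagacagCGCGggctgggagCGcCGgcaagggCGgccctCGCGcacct
LINC00665: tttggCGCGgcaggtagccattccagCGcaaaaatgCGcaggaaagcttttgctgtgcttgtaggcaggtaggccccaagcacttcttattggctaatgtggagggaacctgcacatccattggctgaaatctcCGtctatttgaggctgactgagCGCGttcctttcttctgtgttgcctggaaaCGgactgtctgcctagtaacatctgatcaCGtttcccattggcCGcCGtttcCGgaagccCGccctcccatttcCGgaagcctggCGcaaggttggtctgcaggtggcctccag

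The PURPL window held 2 p53 half-sites, each a match of 10 bases to the p53 consensus half-site, which reads the same on both strands. They lay at bases -127 to -108 from the start with 0 bases between them. Of the 35116 windows of this length, 6.63% held at least 1 half-site, and 10 (0.0285%) held 2 with at most 13 bases between them. FENDRR held 1 half-site and LINC00665 none. PURPL had 0 CG dinucleotides, a state shared with 3.96% of windows. FENDRR had 26, a count that 30.1% of windows reached. LINC00665 had 15 in the window shown and 12 in that of its other start, near the median of 14. These matches describe the letters and not a bound site, and the arrays hold no methylation values.

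The deposited values are log2 signals, with array medians of 5.47 to 5.55. A signal near or below the median may be held up by background, so differences that rest on it may be understated. A cluster was tested if it exceeded the array median on 2 or more of the 8 arrays, which left 28946, and 7 of the 7 clusters of these RNAs passed. LINC02525 lay above the median on 2 arrays, the minimum, so it passed through the arrays where it is high. Of 9 named kidney and HEK293 markers, 9 lay above the median on every array. All 3 named endothelial markers lay below it on every array, as did 2 of 3 blood markers (CD14 and LYZ), 2 of 3 fibroblast markers (LUM and DCN) and 1 of 3 hepatocyte markers (ALB). The others went the other way. The blood marker CD68 and the hepatocyte markers APOA1 and TTR lay above it on every array, and the fibroblast marker THY1 on 5.

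TET1 itself was read by clusters 16705381 and 16715048. The control clone read 9.29 on the former cluster, shTET1#1 8.62 and shTET1#2 9.14. On the latter the values were 5.71, 5.27 and 6.20, so the library labelled shTET1#2 gave little or no lower TET1 signal. With the vector the clusters read 9.51 and 5.86, and the plasmid arrays lay at 10.42 to 12.47 and at 11.80 to 12.10. Values are therefore given for each clone.

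PURPL had the widest range of the 735 kept lncRNA clusters, 4.33 log2 units. The control clone read 7.90, shTET1#1 4.79 and the library labelled shTET1#2 6.13. The vector array read 8.26, TET1-CD 8.74, mTET1-CD 8.79, TET1-FL 9.11 and mTET1-FL 9.05. Both TET1 shRNA clones were thus low, the lower of them beneath its array median, and neither overlapped the 6 other arrays. Across all kept clusters 6.5% had both clones below the 6 other arrays, and 0.383% were at least 2-fold lower than the control in both clones, as PURPL and FENDRR were. PURPL differed from the control clone by -3.11 in shTET1#1, an 8.65-fold deficit, and by -1.77 in the other clone, a 3.42-fold deficit. The fitted difference was -2.44 ± 0.55 (SE), and the clones lay 1.34 apart. Against the vector array the clones stood at -3.48 and -2.13, so these clones read low against either reference. The clone readings that chose PURPL enter both differences, so the second is not independent of the choice. It also compares stable clones with transiently transfected, sorted cells. In bulk arrays fewer cells with an RNA and less RNA per cell cannot be told apart.

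**Figure D1:**
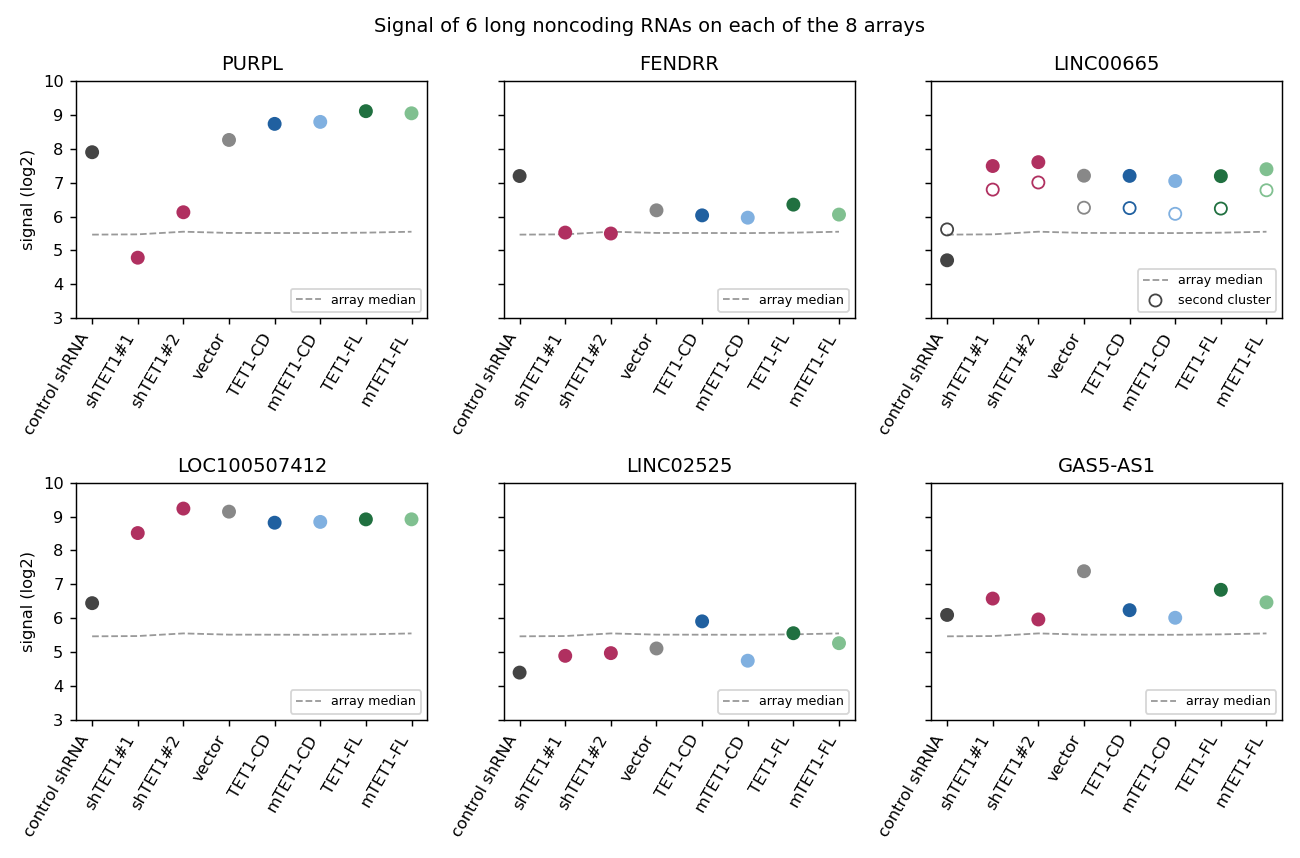
Signal (log2, vertical axis) of each of the 6 RNAs on the 8 arrays (horizontal axis, 1 point per array), with the array medians as a dashed line and the second LINC00665 cluster as open points. PURPL is low in both TET1 shRNA clones (4.79 and 6.13), while LINC00665 (4.71) and LOC100507412 (6.45) are low in the control clone alone.

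In the plasmid arrays PURPL stood above the vector with each of the 4 plasmids, by 0.47 with TET1-CD, 0.53 with mTET1-CD, 0.85 with TET1-FL and 0.79 with mTET1-FL. The mean difference was 0.66 ± 0.50 (SE, limma adjusted p = 0.607), and 27.2% of all kept clusters had all 4 plasmids above the vector. Wild-type and mutant proteins gave nearly the same PURPL signal, at -0.059 apart with CD and 0.063 with FL (fit 0.0023 ± 0.45, limma adjusted p = 1). Both FL arrays lay above both CD arrays, a pattern of 27.6% of clusters, with a fitted difference of 0.31 ± 0.45 (limma adjusted p = 0.838).

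Protein-coding targets of p53 were set beside PURPL, with 16 of 30 listed genes named and kept. Against the vector, 13 of the 16 stood higher with the plasmids, with a median of 0.74 where that of all clusters was 0.0014. All 4 plasmids were above the vector in 12 of the 16, as they were in 27.2% of all clusters. PLK2, a polo-like kinase, stood at 1.65 and GDF15, a secreted stress cytokine, at 1.29. None of the 16 passed the limma threshold, and 12 had an unadjusted p under 0.05, against 15% of all clusters. In the TET1 shRNA comparison 12 of the 16 were lower, with a median of -0.17 (all clusters -0.0104), and 7 were below the control in both clones, as 33.1% of all clusters were. The members furthest from 0 there were EDA2R, a receptor of the TNF family, at 2.67 and PLK2 at -0.82. EDA2R, opposite to PURPL in sign, read 4.64 in the control clone and 6.54 to 7.62 on every other array. None passed limma, and 3 had an unadjusted p under 0.05, against 7.93% of all clusters. Wild-type stood above mutant in 14 of 16, with a median of 0.12 (all clusters 0.0027), where PURPL showed 0.0023. The list was chosen with results of these arrays known and is not independent evidence of a direction.

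**Figure D2:**
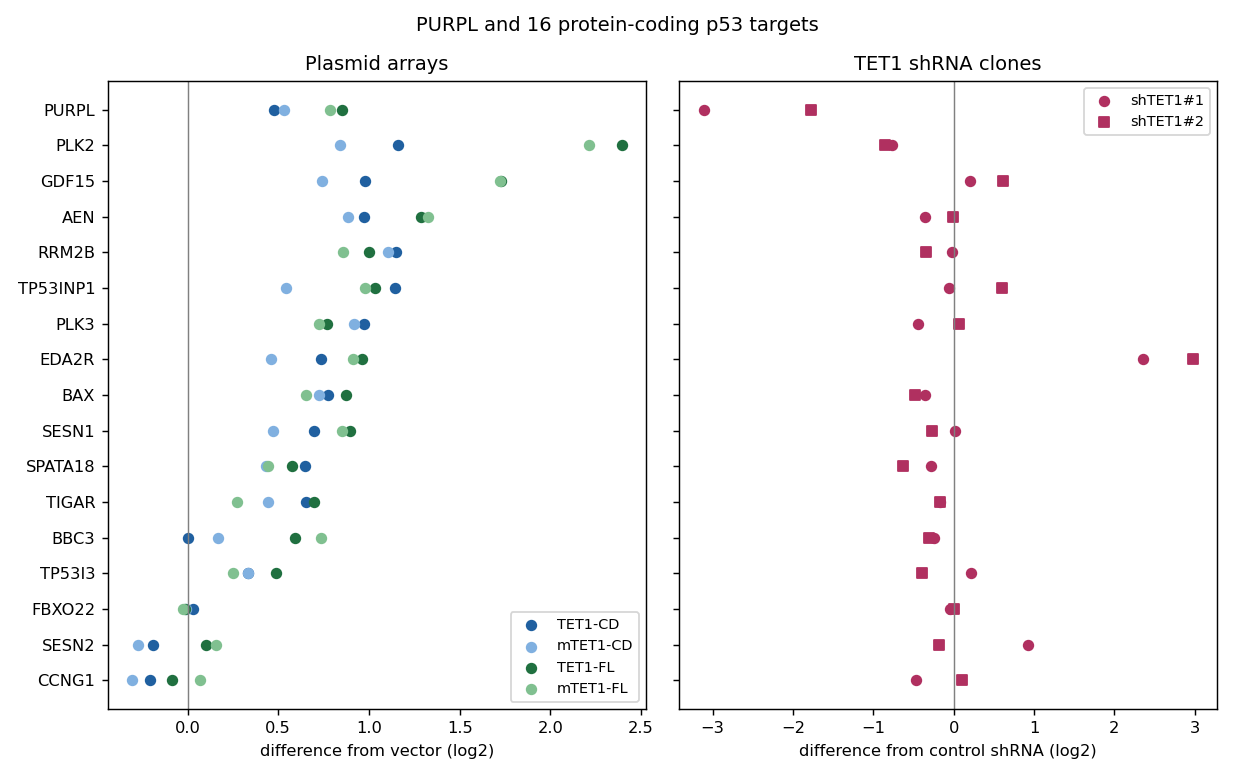
Differences (log2, horizontal axes) of PURPL and 16 p53 targets (rows) for each plasmid array from the vector (left) and each TET1 shRNA clone from the control clone (right), 1 point per array. PURPL lies 0.47 to 0.85 above the vector, within the spread of the other targets. In the clones it lies at -3.11 and -1.77, further below the control than any of the 16. PURPL was chosen on that difference, so its place there follows from the choice.

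Genes whose proteins act on p53 with or beside PURPL, 6 of 8 listed, were named and kept. MYBBP1A, the nucleolar partner of PURPL, stood at 0.10 with TET1 shRNA, 0.17 with the plasmids and -0.72 in FL against CD. MDM4, an inhibitor of p53, stood at 0.34, -0.29 and 0.034 in the same 3 comparisons. EP300, an acetyltransferase, stood at -0.16, 0.38 and -0.032, and USP7, a deubiquitinase, at -0.016, 0.19 and -0.25. TP53BP1, a DNA damage adaptor, stood at -0.30, 0.023 and -0.14, and the kinase HIPK2 at -0.017, -0.0061 and -0.077. None passed the limma threshold in any comparison. By unadjusted p under 0.05 there was 1 of 6 for the plasmids, where 15% of all clusters reached it, and 1 of 6 in FL against CD, where 13.7% did.

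PURPL lies in a gene-poor stretch of chromosome 5, and the nearest named and kept genes were PRDM9, MYO10 and ZNF622 on one side and C5orf22, MIR4279 and GOLPH3 on the other. In the TET1 shRNA clones MYO10, a filopodial myosin gene (-0.28 and -0.36), ZNF622 (-0.28 and -0.51) and GOLPH3, a Golgi protein gene (-0.10 and -0.094), lay below the control in both. PRDM9, a histone methyltransferase of meiosis, stood at -0.60 and 0.16, C5orf22 at 0.015 and -0.40 and MIR4279 at -0.022 and 0.15. None of the 6 passed the limma threshold. ZNF622 was above the vector with all 4 plasmids, by 0.70 to 1.12, with a fitted difference of 0.88 ± 0.16 (limma adjusted p = 0.185). Over the 8 arrays the named profiles most like PURPL, among 1331 genes with a range of at least 1 log2 unit, were those of the zinc finger gene ZNF462 (Pearson r = 0.991), NAB2, a corepressor of EGR factors (0.963), and DTX3L, a ubiquitin ligase (0.945). ZNF462 read 5.48 and 5.83 in the TET1 shRNA clones, 6.57 in the control clone and 6.84 to 7.19 elsewhere. These coefficients describe 8 arrays that fall into shRNA and plasmid sets, and the genes were picked as the most alike.

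FENDRR was high in the control clone. It stood at 7.20 there, at 5.53 in shTET1#1 and at 5.50 in the library labelled shTET1#2. The vector array read 6.18, TET1-CD 6.03, mTET1-CD 5.97, TET1-FL 6.35 and mTET1-FL 6.06. The control clone was 0.84 (1.80-fold) above the next array, and 14.4% of all clusters had the control clone as the highest array by any gap. The clones, close to their array medians, differed from the control by -1.67 and -1.70, or 3.18- and 3.24-fold, with a fit of -1.68 ± 0.16 (SE). Against the vector they differed by -0.66 and -0.68, and the fit gave -0.67. The control clone itself stood 1.01 (2.02-fold) above the vector, so the reference arrays differed more than the clones and the vector did.

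FENDRR with the plasmids stood within 0.22 of the vector on every array, with a mean of -0.081 ± 0.14 (limma adjusted p = 0.859). Wild-type stood above mutant by 0.068 with CD and 0.29 with FL, or 0.18 ± 0.13 (limma adjusted p = 1). FL minus CD was 0.20 ± 0.13 (limma adjusted p = 0.582).

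FOXF1, which shares the intergenic start region of FENDRR, varied far less. The control clone read 7.97, shTET1#1 7.72 and the library labelled shTET1#2 7.42. The signal was 7.78 with the vector, 7.61 with TET1-CD, 7.55 with mTET1-CD, 7.83 with TET1-FL and 7.81 with mTET1-FL. The control clone was again the highest array and the second clone the lowest, as for FENDRR, but the fitted difference was -0.40 (limma adjusted p = 0.699). FLJ30679, an lncRNA gene further along, ran the other way, with 5.70 in the control clone, 6.07 and 6.12 in the clones and 7.24 and 7.31 with the FL plasmids (FL minus CD 0.70 ± 0.13, limma adjusted p = 0.143). MTHFSD lay at -0.35 to -0.46 from the vector with the plasmids (fit -0.41 ± 0.14, limma adjusted p = 0.291). On the other side were IRF8, COX4I1 and EMC8, whose clones lay within 0.29 of the control.

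Of the FENDRR partner and lateral mesoderm genes, 12 of 19 were named and kept. In the shRNA comparison 10 of the 12 were lower, with a median of -0.085 (all clusters -0.0104), and HAND1, a heart and extraembryonic mesoderm factor (-0.49), and FOXF1 (-0.40) were furthest from 0. The Polycomb subunit genes EZH2 and SUZ12 stood at -0.010 and -0.0012. With the plasmids EZH2 stood at 0.52 and HAND1 at -0.40. None of the 12 passed the limma threshold in any comparison, and none had an unadjusted p under 0.05 for the shRNA clones. The profiles most like FENDRR were those of LYPD4, a sperm surface protein gene (r = 0.970), ROR2, a receptor for Wnt ligands (0.961), and DPP4, a cell surface peptidase (0.957), each with the control clone as the highest array. LYPD4 read 7.88 in the control clone, 4.89 in each TET1 shRNA clone and 5.70 to 6.03 elsewhere.

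LINC00665 was low in the control clone and in no other array. It stood at 4.71 there, beneath the array median, at 7.49 in shTET1#1 and at 7.61 in the library labelled shTET1#2. The vector read 7.21, TET1-CD 7.20, mTET1-CD 7.05, TET1-FL 7.19 and mTET1-FL 7.40. The 7 arrays other than the control clone spanned 0.56, and the control lay 2.34 (5.07-fold) below the lowest of them. The second cluster, 16871642, also had the control clone lowest, at 5.62 against 6.08 to 7.01, a gap of 0.46. Against the control the clones differed by 2.78 and 2.90 (6.88- and 7.45-fold; fit 2.84 ± 0.18), and 0.432% of clusters were at least 2-fold higher in both clones, as LINC00665 and LOC100507412 were. Against the vector the clones differed by 0.29 and 0.40, and the fit gave 0.34. On the second cluster the clones differed from the control by 1.18 and 1.39 (fit 1.28) and from the vector by 0.54 and 0.75. The size of both differences thus depended on the cluster.

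LOC100507412 had the same outline. The control clone read 6.45, shTET1#1 8.51 and the library labelled shTET1#2 9.24. The vector read 9.15, TET1-CD 8.82, mTET1-CD 8.84, TET1-FL 8.92 and mTET1-FL 8.92. The control clone lay 2.07 (4.20-fold) below the next array, and the other 7 spanned 0.72. Against the control the clones differed by 2.07 and 2.79 (fit 2.43 ± 0.32), and against the vector by -0.63 and 0.091. The sign thus depended on which reference array was used. RefSeq gives this locus no chromosome, and in its table the next 4 entries, RNA45SN5, RNA18SN5, RNA5-8SN5 and RNA28SN5, are ribosomal RNA genes with intervals inside that of LOC100507412. The scaffold of each entry is not named there. Ribosomal RNA genes are repeated in near-identical copies, and whether the probes read such copies was not tested, so this signal is uncertain.

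**Figure D3:**
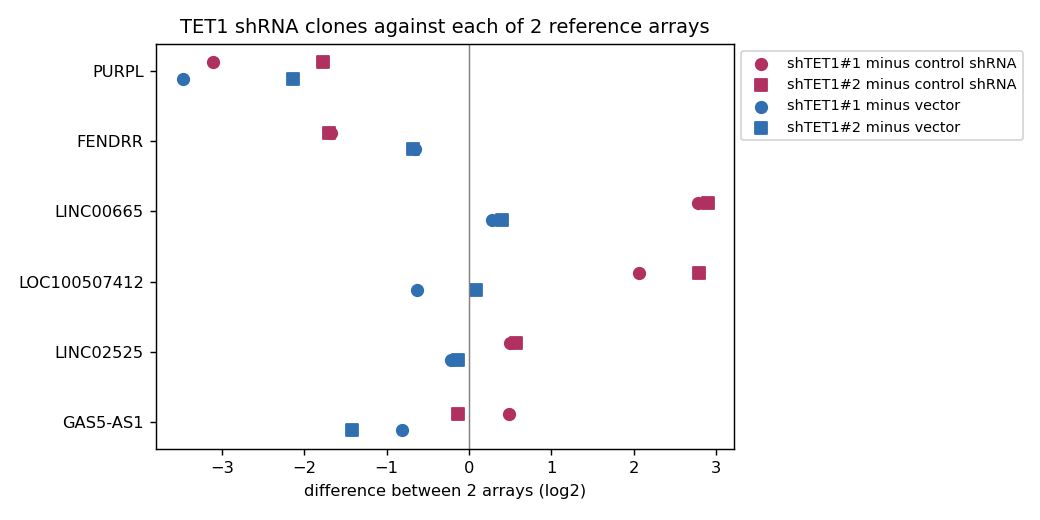
Difference (log2, horizontal axis) of each TET1 shRNA clone from the control shRNA array (red) and from the vector array (blue) for the 6 RNAs (rows), 1 point per pair of arrays. PURPL stays below 0 against both references (-1.77 to -3.48), while LINC00665 moves from 2.78 and 2.90 to 0.29 and 0.40 and LOC100507412 from 2.07 and 2.79 to -0.63 and 0.091. The same clone readings enter the red and the blue points, so these are not independent of each other.

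With the plasmids neither RNA moved far from the vector on its chosen cluster. The second LINC00665 cluster stood at -0.011 with TET1-CD, -0.18 with mTET1-CD, -0.025 with TET1-FL and 0.52 with mTET1-FL. The values that follow are those of the chosen clusters. LINC00665 stood at -0.0056 with TET1-CD, -0.16 with mTET1-CD, -0.013 with TET1-FL and 0.19 with mTET1-FL (mean 0.0042 ± 0.16, limma adjusted p = 0.996). LOC100507412 stood at -0.33, -0.30, -0.23 and -0.23 in the same order (mean -0.27 ± 0.29, limma adjusted p = 0.737). Wild-type minus mutant was -0.027 ± 0.15 and -0.012 ± 0.26 (limma adjusted p = 1 for both), and FL minus CD was 0.17 ± 0.15 and 0.087 ± 0.26 (limma adjusted p = 0.703 and 0.936).

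The control clone stood apart from the other arrays more often than any of them. It lay at least 2-fold below all 7 others in 66 of the 28946 clusters (0.228%) and above them in 16. Of the 735 kept lncRNA clusters, 3 (0.408%) had the control clone at least 2-fold below the others, LINC00665 and LOC100507412 among them. LINC00665 had the fourth and LOC100507412 the fifth largest such gap below, and FENDRR ranked 35 among gaps above. These RNAs were chosen on differences from the control clone, so the ranks and the lncRNA share are not independent of that choice. The library labelled shTET1#2 was alone at the bottom in 44 clusters, the vector in 25, shTET1#1 in 16, and the plasmid arrays in 2 to 10 each. Of the 9 named kidney and HEK293 markers, the control clone was lowest for EYA1, at 6.31 against 7.66 to 8.65. It was highest for SIX2, at 9.67 against 8.72 to 9.63, and for HOXD11, at 9.02 against 8.28 to 9.01, and neither lowest nor highest for the other 6. The part of this clone's other properties in the LINC00665, LOC100507412 and FENDRR values was not tested, and clone and shRNA cannot be told apart with 1 clone each.

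**Figure D4:**
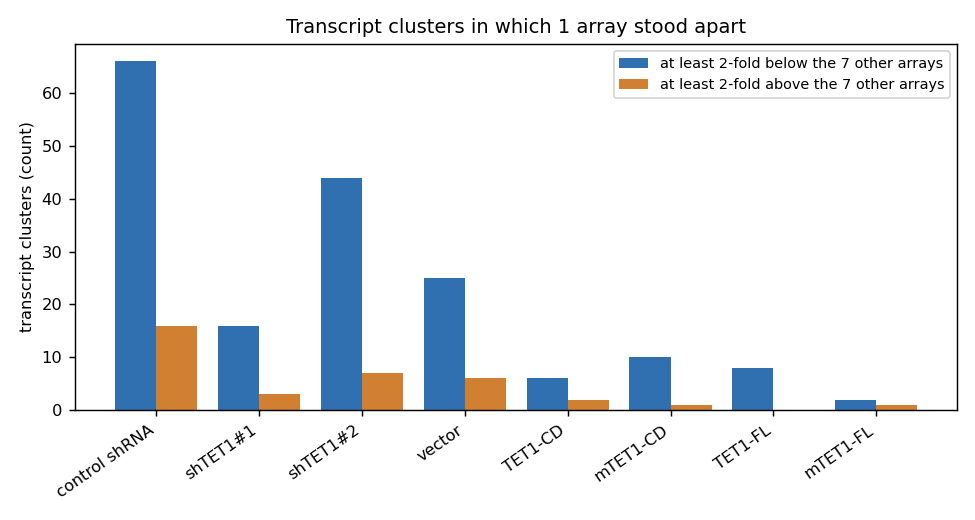
Number of transcript clusters (vertical axis) in which 1 array lay at least 2-fold below (blue) or above (orange) all 7 others, for each array (horizontal axis), out of 28946. The control shRNA array has the tallest bars, 66 below and 16 above, and the mTET1-FL array has 2 and 1.

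Zinc finger genes around LINC00665 leaned the same way in the shRNA comparison. Of 29 listed, 23 were named and kept, and the fitted difference was above 0 in 23 of 23, with a median of 0.54 (all clusters -0.0104). None passed limma, and 8 had an unadjusted p under 0.05, against 7.93% of all clusters. ZNF527 (2.33) and ZNF345 (1.75) were furthest from 0. The control clone was the lowest array in 17 of the 23, where 14.7% of all clusters had it lowest. Both clones were above the control in 19 of the 23 and above the vector in 2 of the 23. Against the vector the median was -0.23. The 23 differences from the control all subtract 1 array, and the list was chosen with results of these arrays known. They are not independent evidence of a direction. Of the genes nearest LINC00665, ZNF146 stood at 9.37 in the control clone and 9.24 to 9.44 elsewhere, and ZNF565 at 5.40 against 5.31 to 5.69. TBCB, a tubulin cofactor gene, differed from the control by -0.043 and -0.27 in the clones, the pseudogene ACOT4P1 by -0.28 and 0.13, and ZNF566 by 0.90 and 0.18. ZFP14, next on the other side, differed by 0.44 and -0.15 in the clones, and lay at -0.78 to -1.48 from the vector with the plasmids (fit -1.05 ± 0.31, limma adjusted p = 0.254), where LINC00665 stood within 0.19.

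The profiles most like LINC00665 were those of MAP7D2, a microtubule-associated protein gene (r = 0.964), LOC100507412 (0.956) and the phosphatase gene CPPED1 (0.954). LINC00665 and LOC100507412 were both chosen on a difference from the control clone, so their likeness is not independent of that choice. In both the control clone is the 1 array far from the rest. MAP7D2 read 5.44 in the control clone and 8.25 to 9.30 elsewhere, and CPPED1 5.08 against 6.43 to 7.19. Besides LINC00665, those most like LOC100507412 were RNF43, a ubiquitin ligase that limits Wnt receptors (0.947), and EDA2R (0.917). RNF43 spanned less, from 6.11 in the control clone to 7.12.

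LINC02525 was highest with the wild-type CD plasmid. It stood at 5.91 with TET1-CD, 4.75 with mTET1-CD, 5.56 with TET1-FL and 5.26 with mTET1-FL. The vector read 5.11, the control clone 4.40, shTET1#1 4.89 and the library labelled shTET1#2 4.97. Only the 2 wild-type plasmid arrays lay above their array medians, so the other 6 values may be limited by background. Wild-type exceeded mutant by 1.16 (2.24-fold) with CD and by 0.29 (1.23-fold) with FL, and 25% of all clusters had wild-type above mutant in both. The fitted difference was 0.73 ± 0.23 (SE), and most of it came from CD.

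In the comparisons that did not choose it, LINC02525 stood at 0.26 ± 0.26 with the plasmids against the vector (limma adjusted p = 0.710) and at 0.084 ± 0.23 in FL against CD (0.929 by limma). LINC02525 passed the filter only through the wild-type arrays, which enter the plasmid mean, so the plasmid comparison is not independent of its choice. The mTET1-CD array stood at -0.36 from the vector and the other 3 plasmids at 0.16 to 0.80. TET1 shRNA minus control was 0.53 ± 0.28 (limma adjusted p = 0.726), with 0.49 and 0.57 in the clones, and -0.18 against the vector. Its nearest named and kept genes were WRNIP1, GMDS-DT and FOXF2 on one side and PXDC1, PRP4K and ECI2 on the other. Wild-type minus mutant in both constructs was above 0 for FOXF2 (0.048 and 0.016) and PRP4K (0.17 and 0.014) and of mixed or negative sign for the other 4. GMDS-DT, an lncRNA divergent from the mannose dehydratase gene GMDS, stood at -0.59 to -1.06 from the vector with the plasmids (fit -0.84 ± 0.22, limma adjusted p = 0.233). The most similar profiles were those of ZNF750, an epidermal differentiation factor (r = 0.899), ARC, an immediate early gene (0.897), and TMBIM1 (0.839), lower coefficients than for the other RNAs.

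GAS5-AS1 was highest with the empty vector. It stood at 7.39 there, 6.24 with TET1-CD, 6.01 with mTET1-CD, 6.84 with TET1-FL and 6.47 with mTET1-FL. The control clone read 6.10, shTET1#1 6.58 and the library labelled shTET1#2 5.96. The vector thus lay 0.55 above the next array, and the shRNA arrays (5.96 to 6.58) overlapped the plasmid arrays (6.01 to 6.84). The plasmids differed from the vector by -1.15, -1.37, -0.55 and -0.92 in that order (2.22-, 2.59-, 1.46- and 1.89-fold lower), with a mean of -0.998 ± 0.26 (SE). All 4 plasmids lay below the vector in 27.2% of clusters, so that pattern alone is common. The control shRNA clone was also 1.29 below the vector. That difference crosses the shRNA and plasmid sets, and the part of the sets in it was not tested. It also uses the vector reading on which GAS5-AS1 was chosen.

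Both FL arrays exceeded both CD arrays for GAS5-AS1, and FL minus CD was 0.53 ± 0.23 (limma adjusted p = 0.419). Wild-type exceeded mutant by 0.22 with CD and 0.37 with FL, and the fit gave 0.30 ± 0.23 (limma adjusted p = 1). TET1 shRNA minus control was 0.17 ± 0.28 (limma adjusted p = 0.928), with 0.48 and -0.13 in the clones. Against the vector it was -1.12, a difference that uses the vector reading on which GAS5-AS1 was chosen.

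GAS5 on the opposite strand did not share the vector peak. It stood at 10.47 in the control clone, 9.93 and 10.35 in the TET1 shRNA clones, 10.35 with the vector, 10.14 with TET1-CD, 10.33 with mTET1-CD, 10.79 with TET1-FL and 10.95 with mTET1-FL. The plasmid mean was 0.20 above the vector (limma adjusted p = 0.719), opposite in sign to GAS5-AS1. Both CD arrays lay below the vector and both FL arrays above it, and 10.4% of all clusters had CD and FL on opposite sides of the vector. FL exceeded CD in both RNAs (0.64 ± 0.18 for GAS5, limma adjusted p = 0.249). Whether the probes separate the strands is not stated in the labels. ZBTB37, which starts beside GAS5, did follow the vector peak, lying at -0.44 to -0.58 from it with the plasmids (fit -0.50 ± 0.14, limma adjusted p = 0.239). CENPL and KLHL20, on the other side, stood 0.29 to 0.49 above the vector, RC3H1 0.25 to 0.44 above it and PRDX6 at -0.12 to -0.38.

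**Figure D5:**
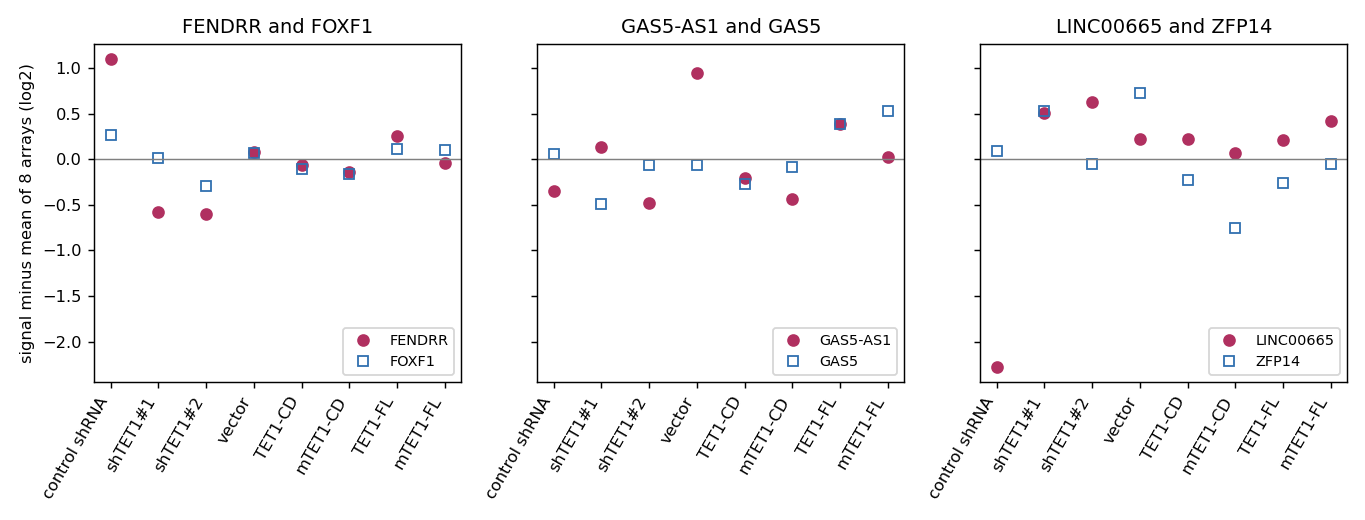
Signal minus the mean of the 8 arrays (log2, vertical axis) for FENDRR and FOXF1, GAS5-AS1 and GAS5, and LINC00665 and ZFP14 on each array (horizontal axis). The vector peak of GAS5-AS1 (7.39) has no counterpart in GAS5 (10.35), and the low control value of LINC00665 (4.71) none in ZFP14 (5.68). Of the 23 kept zinc finger genes around LINC00665, 17 had the control clone as the lowest array.

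Of 17 listed host genes of small nucleolar RNAs, GAS5 included, 9 were named and kept. Against the vector 7 of 9 stood higher with the plasmids, with a median of 0.20 (all clusters 0.0014), led by SNHG15 (0.73) and SNHG17 (0.48). In FL against CD 7 of 9 were higher, with a median of 0.24 (all clusters 0.0031), led by SNHG5 (0.76) and GAS5 (0.64). None passed limma. An unadjusted p under 0.05 was reached by 2 of the 9 for the plasmids (15% of all clusters) and by 3 in FL against CD (13.7% of all clusters). The profiles most like GAS5-AS1 were those of ZNF624 (r = 0.948), the lncRNA CCDC18-AS1 (0.939) and VLDLR, a lipoprotein receptor (0.931), all with the vector as the highest array. CCDC18-AS1 read 7.39 with the vector and 6.32 to 6.73 elsewhere.

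Values of the class as a whole are given as background. Of the 735 kept lncRNA clusters, 145 (19.7%) spanned at least 2-fold over the arrays, where 22.7% of all clusters did, and 9 (1.22%) at least 4-fold, where 2.67% did. PURPL, LINC00665 and LOC100507412 ranked 1, 3 and 4 by range among lncRNAs, and FENDRR, LINC02525 and GAS5-AS1 ranked 16, 28 and 39, ranks that follow from their selection on differences between these arrays. The other 728 had a median of 0.036 for TET1 shRNA and 0.026 for wild-type against mutant. It was -0.0018 for the plasmids against the vector and 0.028 for FL against CD. Of 45 listed well-known lncRNAs, 13 were named and kept. Their medians in the same order were 0.075, 0.0063, -0.055 and 0.089. MALAT1, a nuclear speckle RNA, lay within 0.13 of 0 in all 4, but read 9.63 to 9.76 on the 3 shRNA arrays and 10.71 to 10.91 on the vector and plasmid arrays, with no overlap. Differences between an shRNA array and the vector array cross these sets, and the part of the sets in them was not tested. CRNDE (-0.69) and CYTOR (0.53) were furthest from 0 for the plasmids, and LINC-PINT (0.33) and CYTOR (0.28) for the shRNA clones.

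By limma, 0 of the 28946 clusters (0%) passed an adjusted p of 0.05 in each of the 4 comparisons, the 6 RNAs included. The lowest adjusted p was 0.16 for TET1 shRNA, 1 for wild-type against mutant, 0.162 for the plasmids against the vector and 0.114 in FL against CD. At an unadjusted p under 0.05 the counts were 2294, 567 (1.96%), 4352 and 3975. Among the RNAs, in the comparisons that did not choose them, none reached an unadjusted p under 0.05.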

How the data were processed

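RNA of 8 samples was labelled from 100 ng of total RNA and hybridised to Affymetrix arrays. The authors deposited log2 values per transcript cluster, for which Affymetrix Expression Console 1.3.1 and RMA (background correction, normalization and probe summary) are named in the submitters' processing notes. The build is not given in the sources used here. Of 53981 rows, 364 held no value. Platform annotation named 16098 clusters with 1 symbol each, 0 with several, and the remaining clusters were tested but not named. Gene types and gene order came from RefSeq (GRCh38.p14).

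All 8 arrays entered 1 fit in limma 3.58.1 (lmFit and eBayes in R 4.3.3). The model had 1 term for each shRNA group, the vector, the wild-type and the mutant plasmids, and 1 for the construct (FL 0.5, CD -0.5). It had 2 residual degrees of freedom, a prior of 2.89 degrees of freedom and a prior SD of 0.154. Adjusted p-values are Benjamini-Hochberg values over all kept clusters. The fit was tested on simulated data. Where each side had 1 array, differences are described without a test. The number of arrays limits the precision.

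The RNAs, gene lists and tests were chosen with earlier results of these data known. Genes named are TET1, the RNAs, the 3 nearest named and kept genes on each side, the 3 most similar profiles by Pearson r (range at least 1 log2 unit) and the 2 members of each list furthest from 0, or all where fewer than 8 were kept. Other genes named in lists (MALAT1, EZH2, SUZ12, EYA1, SIX2, HOXD11) were chosen after their values were seen. For a gene read by several clusters, that of highest mean signal was taken. Alternatives were no filter, median centring, cyclic loess, 1 cluster per symbol, other reference or left-out arrays.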

Additional observations from a re-analysis of the deposited data

Results flagged for a closer look

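Of the 36 RNAs and neighbouring genes examined, 6 had both CD plasmids on one side of the vector and both FL plasmids on the other (10.4% of all kept clusters had this pattern). They were PRDM9 (FL minus CD 0.51), MIR4279 (-0.60), ZNF146 (-0.11), IRF8 (-0.26), FOXF1 (0.24) and GAS5 (0.64). By limma the FL minus CD difference had an adjusted p of 0.516, 0.197, 0.763, 0.514, 0.583 and 0.249 in that order, and none passed. GAS5 differed from the vector by -0.21 with TET1-CD, 0.44 with TET1-FL and 0.59 with mTET1-FL.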

How the results depend on the processing

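No cluster passed in any comparison under most alternatives. With 1 named cluster per symbol, which tests fewer genes, 5 passed for TET1 shRNA. With arrays centred on their medians 1 passed for plasmids minus vector, a cluster of TET1. Leaving out either TET1 shRNA clone gave 0. Of 24 differences of the 6 RNAs, 15 kept their sign under every alternative tried. With the vector as reference the TET1 shRNA difference turned to -0.27 for LOC100507412, -0.18 for LINC02525 and -1.12 for GAS5-AS1, and for GAS5-AS1 leaving out either TET1 shRNA replicate gave -0.13 to 0.48. GAS5-AS1 was chosen on a difference from the vector, so its value against the vector is not independent of that choice. Wild-type minus mutant turned to -0.0059 (cyclic loess) and -0.059 (without FL) for PURPL and to 0.15 (without FL) for LINC00665. Plasmids minus vector turned to -0.0054 (median centring) and -0.081 (without FL) for LINC00665 and to 0.021 (without CD) for FENDRR. FL minus CD without the mutant arrays was -0.0076 for LINC00665 and -0.35 for LINC02525. The cause was not tested. No paired analysis was possible because no 2 groups share 2 replicate numbers. Signals near the array median, as for LINC02525, limit what can be read.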
